A study of Mus musculus with 10 samples.

Results

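The genes described here code for the proteins that recognise splice sites and for the CLK kinases that regulate them. They are the genes of the SRSF, hnRNP, TRA2, U2AF, SF3A and SF3B and PRPF families together with Clk1, Clk3 and Clk4. They were taken by symbol, and each gene was represented by the probe (transcript cluster) paired with that gene alone that had the highest mean level over all arrays. By this rule 51 of the 19661 genes with such a probe and with values were members: 3 CLK, 9 SRSF, 2 TRA2, 14 hnRNP, 2 U2AF, 9 SF3A and SF3B, and 12 PRPF genes. The families were chosen by measured values of these same arrays, on which many of their genes were already known to vary together with Clk1 between mice, and the probe of each gene was selected on its mean level. The correlations with Clk1 below are therefore a description, and no test was made on them.

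SR proteins, named SRSF, are RNA-binding proteins with a domain rich in arginine and serine, and they bind exons and promote their use by the spliceosome. CLK kinases phosphorylate that domain, which releases SR proteins from nuclear speckles, and the hnRNP proteins often oppose SR proteins at the same transcripts. U2AF binds the end of the intron, the SF3A and SF3B complexes belong to the U2 snRNP at the branch point, and most PRPF proteins belong to the U4/U6.U5 tri-snRNP or to complexes that activate the spliceosome. Transcripts of Clk1, Clk4 and several SR proteins are known in mammals for introns that are retained in the nucleus and for exons that lead to decay.

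The study compared whole adrenal glands of 5 Crem KO mice and 5 WT mice, with 1 array per mouse. The KO mice carried a disruption of Crem, the cAMP responsive element modulator, in every cell, and the WT mice carried intact Crem. Mice of both groups were of a 129Pas x C57Bl/J mixed strain, 8 weeks old, untreated, kept in a 12:12 h light cycle and killed by cervical dislocation when the lights came on (circadian time 0 h). Their sex was not used here. A level is the log2 value that RMA gave for a probe, and a difference is KO minus WT. The labels place KO 1, KO 2 and WT 1 in batch 1, KO 3 and KO 4 in batch 2, KO 5, WT 2, WT 3 and WT 4 in batch 3, and WT 5 in batch 4, without saying what a batch was.

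Array medians lay between 7.17 and 7.25. Crem levels lay between 6.84 and 7.97 on KO arrays and between 7.23 and 8.14 on WT arrays, so Crem did not separate the arrays (limma adjusted p 0.999), and the names KO and WT below are those of the labels. Markers of the adrenal cortex were high on every array (mean of 11 genes, 12.28 to 12.83 on KO arrays and 12.70 to 12.88 on WT arrays). KO 1 stood apart from the other arrays, with the highest level of the liver gene Alb (14.13) and the lowest level of the chromaffin enzyme Th (8.40). Alb was next highest on KO 3 (11.29). Adipocyte markers were highest on KO 1 and KO 3 (mean of 10 genes, 12.58 and 12.40), against 8.19 to 10.71 on the other arrays. As the tissue is a whole gland, fewer cells of a type and less RNA per cell cannot be told apart.

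Not every gene of these families was measured. Names that the rule takes but that were not members include Hnrnpf, Hnrnph2, Hnrnpk, Srsf5 and U2af1, whose own probes held no values, Clk2 and Hnrnph3, which had values only on a probe shared with other genes, Hnrnpa1, Hnrnpa1l2-ps2 and Hnrnpa3, whose shared probes held no values, and Hnrnpa1l2-ps, Srsf3-ps and Srsf7, which had no annotated probe. No filter on low levels was applied in the main comparisons, which hold all 51 members, and the alternative with the brighter probes alone dropped Srsf12. Cross-hybridisation between near relatives such as Clk1 and Clk4 was not tested.

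Clk1 varied widely between mice of both groups. Its level was 9.85, 11.69, 8.90, 8.28 and 12.11 on KO 1 to KO 5, against 8.87, 8.84, 12.02, 10.66 and 9.09 on WT 1 to WT 5. KO 2, KO 5 and WT 3 were highest, WT 4 and KO 1 lay between, and the WT levels lay within the range of the KO levels. The highest and lowest arrays differed by 3.83 on the log2 scale, and both were KO arrays.

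Clk4, the closest relative of Clk1, followed it on every array. Its level was 8.93, 10.73, 8.11, 7.71 and 11.05 on KO 1 to KO 5, against 8.43, 8.17, 10.88, 9.72 and 8.28 on WT 1 to WT 5. Pearson r between Clk4 and Clk1 was 0.996 over 10 arrays (Spearman rho 0.94) and 0.98 over the 7 arrays without KO 2, KO 5 and WT 3. Among 19660 genes Clk4 was the 2nd most like Clk1 by r, after Zfp407 (r = 0.997), a zinc finger gene. Clk3, the remaining kinase, ran the other way over a range of only 0.35. It was 9.58, 9.61, 9.78, 9.84 and 9.49 on KO 1 to KO 5, against 9.68, 9.79, 9.58, 9.57 and 9.74 on WT 1 to WT 5, with r = -0.87 and -0.91 without the 3 arrays.

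**Figure D1:**
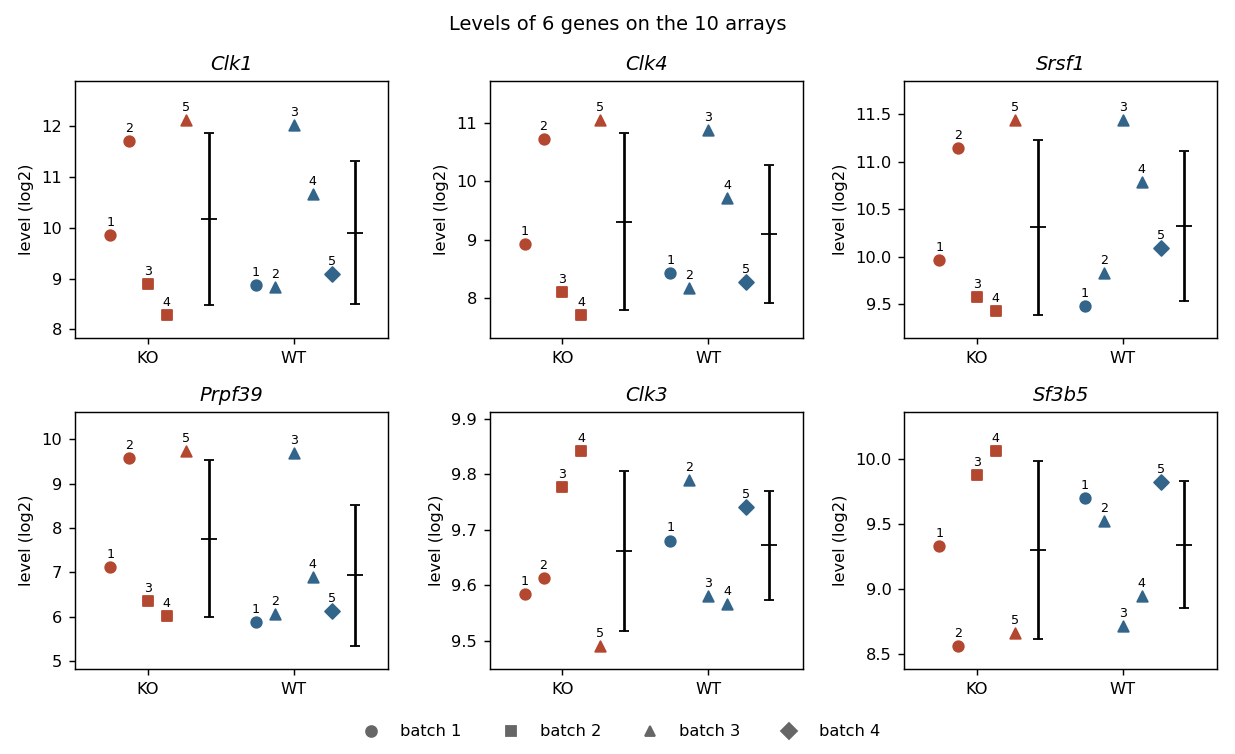
Levels (log2) of Clk1, Clk4, Srsf1, Prpf39, Clk3 and Sf3b5 on KO arrays (left) and WT arrays (right), each point 1 mouse with its number and its batch as the marker shape, and bars the mean ± SD of 5 arrays. In the first 4 genes KO 2, KO 5 and WT 3 are the 3 highest arrays, and in Sf3b5 they are the 3 lowest.

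The promoters of 5 members are shown because these genes lie at opposite ends of the correlation with Clk1, and because CREM acts through the cAMP response element (CRE). Capitals mark the short CRE motif TGACG on either strand, and the full CRE TGACGTCA holds that motif once on each strand, overlapping. The sequences are RefSeq promoters of build GRCm38.p6, from 250 bases before to 50 bases after the annotated start, read 5′ to 3′ along the gene. Clk4 (chr11:51262864-51263163, + strand) and Tra2a (chr6:49264003-49264302, - strand) are the members that hold a full CRE, Srsf1 (chr11:88047123-88047422, + strand) is the member nearest to Clk1 among the SR proteins, and Clk3 (chr9:57765065-57765364, - strand) and Prpf31 (chr7:3629735-3630034, + strand) are members that ran opposite to Clk1.
Clk4: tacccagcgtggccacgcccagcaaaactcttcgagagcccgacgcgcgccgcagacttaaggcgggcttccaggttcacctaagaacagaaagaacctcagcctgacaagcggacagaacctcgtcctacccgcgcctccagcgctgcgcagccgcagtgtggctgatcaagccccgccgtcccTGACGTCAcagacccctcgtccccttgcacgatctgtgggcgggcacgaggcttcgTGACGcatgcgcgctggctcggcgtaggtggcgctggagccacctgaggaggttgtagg
Tra2a: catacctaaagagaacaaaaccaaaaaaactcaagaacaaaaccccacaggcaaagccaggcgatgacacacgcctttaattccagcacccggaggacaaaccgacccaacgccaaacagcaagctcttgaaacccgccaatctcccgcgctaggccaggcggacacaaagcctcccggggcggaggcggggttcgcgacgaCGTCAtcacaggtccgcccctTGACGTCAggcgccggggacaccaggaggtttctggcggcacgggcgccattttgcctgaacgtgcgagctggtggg
Srsf1: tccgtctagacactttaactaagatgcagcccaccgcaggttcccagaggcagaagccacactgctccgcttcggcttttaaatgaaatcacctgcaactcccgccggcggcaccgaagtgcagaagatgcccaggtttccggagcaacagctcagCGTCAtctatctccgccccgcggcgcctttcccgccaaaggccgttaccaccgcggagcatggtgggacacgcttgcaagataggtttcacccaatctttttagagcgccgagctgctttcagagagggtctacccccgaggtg
Clk3: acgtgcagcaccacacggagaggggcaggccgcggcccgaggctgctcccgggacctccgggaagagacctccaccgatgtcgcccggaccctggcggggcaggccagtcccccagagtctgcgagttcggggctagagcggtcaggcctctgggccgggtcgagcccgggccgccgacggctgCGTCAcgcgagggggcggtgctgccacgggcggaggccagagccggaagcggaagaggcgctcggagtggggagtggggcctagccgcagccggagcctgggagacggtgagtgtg
Prpf31: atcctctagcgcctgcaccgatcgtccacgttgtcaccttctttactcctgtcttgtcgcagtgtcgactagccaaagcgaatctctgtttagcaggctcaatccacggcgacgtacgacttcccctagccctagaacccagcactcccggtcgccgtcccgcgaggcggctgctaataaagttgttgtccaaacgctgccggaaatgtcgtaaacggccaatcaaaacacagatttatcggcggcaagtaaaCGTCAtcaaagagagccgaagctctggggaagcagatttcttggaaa

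Of the 51 members, 44 had a promoter in the RefSeq table, and Clk1, Hnrnpll, Hnrnpul2, Prpf18, Sf3b4, Sf3b5 and U2af2 had none there. The short motif was found in 14 of 19 members with r of 0.8 or more (73.7%) and in 4 of 9 with r of -0.8 or less (44.4%). Among the 16 members between it was found in 7 (43.8%). The share was 39.3% of all genes at r of 0.8 or more and 32.9% of those at r of -0.8 or less. Over the 15353 genes with a probe and a promoter it was 27.9%, and over all 27025 genes of the promoter table it was 23.0%. The windows of the 19 genes had a median GC content of 62.0%, against 57.3% over the genes with a probe, and among windows of 55 to 75% GC the shares were 73.7% and 33.4%. A full CRE was found in 2 of the 44 members (4.55%), against 2.72% of genes with a probe, and the CCAAT box, searched as CCAAT on either strand, in 21 of 44 (47.7%), against 41.7%. These are matches of letters and were not tested as binding sites.

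Over all members the correlation with Clk1 fell into opposed groups. Of the 50 members other than Clk1, 22 had r of 0.8 or more (44.0%), against 12.9% of 19660 genes, and 12 had r of -0.8 or less (24.0%), against 17.3% of genes. The median r was 0.37 over the members and -0.35 over all genes. Nearest to the upper limit were Hnrnpul2 inside it (r = 0.835) and Srsf3 outside it (r = 0.796). Nearest to the lower limit were Sf3a1 inside it (r = -0.815) and Prpf19 outside it (r = -0.734). All points share the same 10 arrays, and with the 3 arrays highest in Clk1 left out 8 members had r of 0.8 or more (5.89% of all genes) and 7 had r of -0.8 or less (7.16%). With levels centred by batch the counts were 22 and 14, against 12.9% and 20.3% of all genes.

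**Figure D2:**
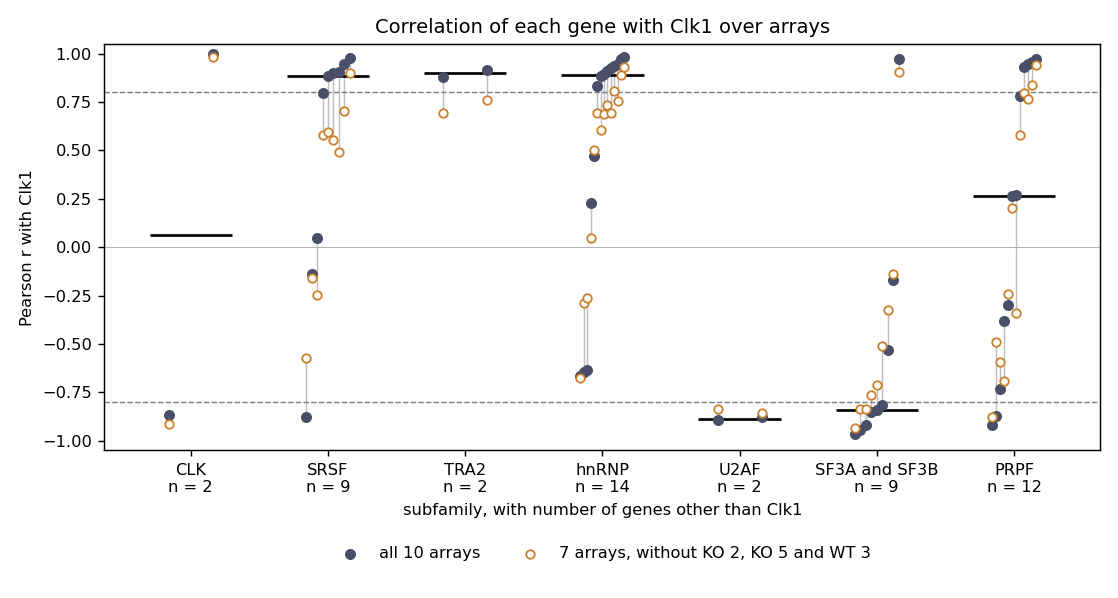
Pearson r of each gene with Clk1 (vertical axis) by subfamily over all 10 arrays (filled points, n = 50 genes) and over the 7 arrays without KO 2, KO 5 and WT 3 (open points), joined by a line for each gene. Black bars are medians over 10 arrays, which were 0.89 for SRSF and hnRNP, -0.84 for SF3A and SF3B and -0.89 for U2AF, and dashed lines mark 0.8 and -0.8.

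The SR proteins mostly followed Clk1, with a median r of 0.89 over 9 genes and 5 genes at 0.8 or more (55.6%, against 12.9% of all genes). Srsf1, the founding SR protein, had r = 0.98 (rho 0.94). Its level was 9.97, 11.14, 9.58, 9.43 and 11.44 on KO 1 to KO 5, against 9.48, 9.83, 11.44, 10.79 and 10.09 on WT 1 to WT 5. KO 5, WT 3 and KO 2 were its 3 highest arrays and KO 4 its lowest, as for Clk1, and r was 0.90 over the 7 arrays. Srsf11 (r = 0.95), Srsf6 (r = 0.91), Srsf10 (r = 0.90), which acts as a repressor when dephosphorylated, and Srsf2 (r = 0.89) were also highest on KO 2, KO 5 and WT 3. Over the 7 arrays these 4 genes had r of 0.70, 0.49, 0.56 and 0.60. Srsf3 (r = 0.796) had the same 3 highest arrays. Srsf4 (r = 0.05) and Srsf12 (r = -0.14) did not follow Clk1 in either direction. Srsf9 was the one SR protein on the opposite side (r = -0.88, and -0.57 over the 7 arrays). Its level was 10.09, 9.92, 10.15, 10.32 and 9.81 on KO 1 to KO 5, against 10.50, 10.48, 9.78, 10.12 and 10.57 on WT 1 to WT 5, lowest on WT 3, KO 5 and KO 2.

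Both TRA2 genes, which code for SR-like activators of exons, followed Clk1. Tra2a (r = 0.92) was 9.44, 10.34, 8.55, 8.76 and 10.56 on KO 1 to KO 5, against 9.33, 9.31, 10.70, 10.11 and 9.74 on WT 1 to WT 5. KO 3 and KO 4 were the lowest arrays and WT 3 the highest. Tra2a was the one member with values on several probes of its own, and these 3 probes had r of 0.918, 0.935 and 0.864 with Clk1. Tra2b (r = 0.88) ranged over 2.20. Over the 7 arrays r was 0.76 for Tra2a and 0.69 for Tra2b.

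The hnRNP genes had a median r of 0.89 over 14 genes. Of these, 9 were at 0.8 or more (64.3%, against 12.9% of all genes) and none at -0.8 or less (against 17.3%). Hnrnpa2b1, a binder of pre-mRNA in the core hnRNP particle, was nearest to Clk1 (r = 0.98, and 0.93 over the 7 arrays). Its level was 10.77, 12.12, 10.04, 10.05 and 12.05 on KO 1 to KO 5, against 10.27, 10.36, 12.21, 11.41 and 10.73 on WT 1 to WT 5. KO 2, KO 5 and WT 3 were again highest, and WT 4 came next.

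Hnrnpdl, a relative of the AU-rich element binder Hnrnpd, had r = 0.97, and Hnrnph1, which binds runs of guanine, had r = 0.95. Hnrnpdl was 9.15, 10.68, 8.51, 8.62 and 10.64 on KO 1 to KO 5, against 9.06, 8.52, 10.54, 9.80 and 8.88 on WT 1 to WT 5. Hnrnph1 was 10.59, 12.15, 9.95, 10.35 and 12.17 on KO 1 to KO 5, against 10.47, 10.54, 12.19, 11.47 and 10.94 on WT 1 to WT 5. In both genes the same 3 arrays were at the top and KO 3 was at the bottom. Hnrnpu, a nuclear scaffold protein (r = 0.94), Hnrnpll (r = 0.93), Hnrnpr (r = 0.91), Hnrnpm (r = 0.90), Hnrnpd (r = 0.88) and Hnrnpul2 completed the 9. Hnrnpc (r = 0.47) and Hnrnpab (r = 0.23) lay between. Hnrnpl, which binds CA repeats (r = -0.66), Hnrnpul1 (r = -0.64) and Hnrnpa0 (r = -0.63) had negative r, which was -0.68, -0.29 and -0.26 over the 7 arrays.

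**Figure D3:**
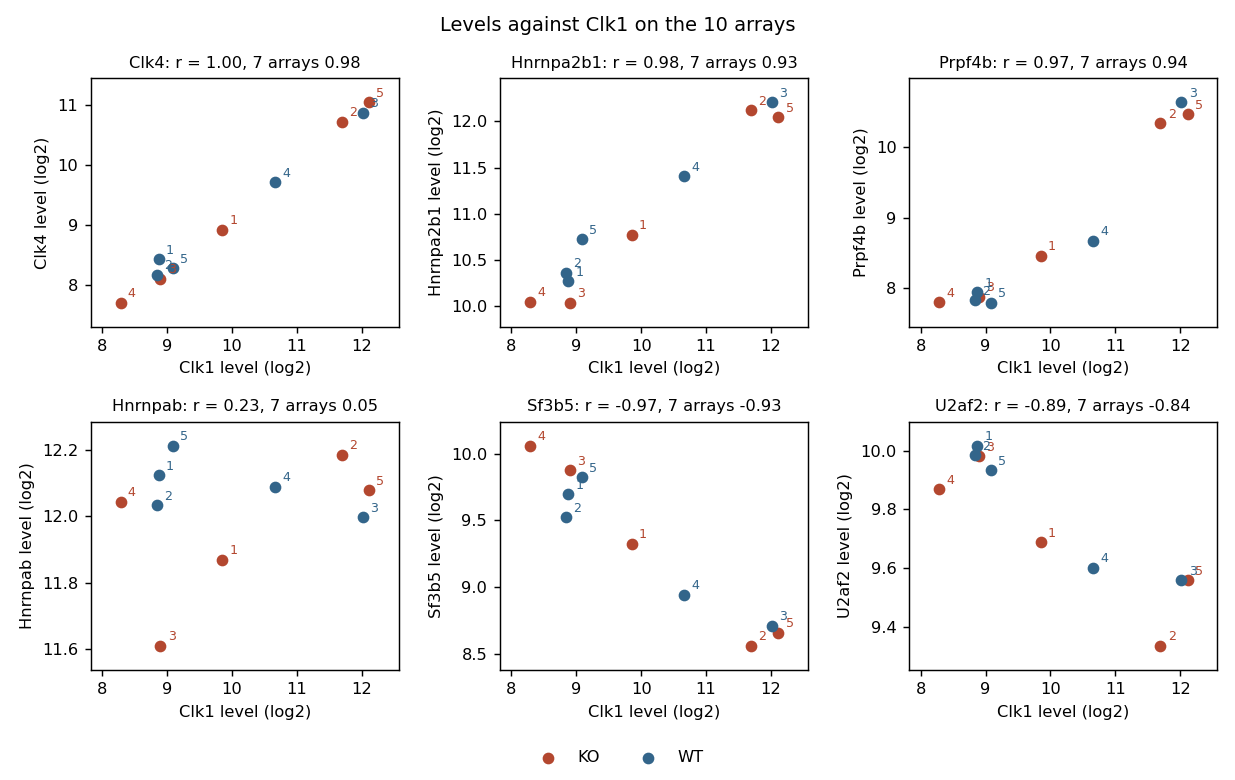
Level of 6 members (vertical axes, log2) against the level of Clk1 (horizontal axes, log2) on the 10 arrays, with KO and WT mice in separate colours and numbered. Clk4, Hnrnpa2b1 and Prpf4b rise with Clk1 across arrays of both groups, Hnrnpab shows r = 0.23, and Sf3b5 and U2af2 fall with it.

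The factors that recognise the branch point and the end of the intron mostly ran opposite to Clk1. U2af2, the large U2AF subunit, had r = -0.89. Its level was 9.69, 9.34, 9.98, 9.87 and 9.56 on KO 1 to KO 5, against 10.02, 9.98, 9.56, 9.60 and 9.93 on WT 1 to WT 5. U2af1l4, a relative of the small subunit, had r = -0.88, and over the 7 arrays r was -0.84 for U2af2 and -0.86 for U2af1l4. KO 2 was lowest in U2af2, and WT 4 was lowest in U2af1l4 (9.23).

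Of 9 SF3A and SF3B genes, 6 had r of -0.8 or less (66.7%, against 17.3% of all genes). Sf3b5, a small subunit of SF3B, was the most opposed member (r = -0.97, and -0.93 over the 7 arrays). Its level was 9.33, 8.56, 9.88, 10.06 and 8.66 on KO 1 to KO 5, against 9.69, 9.52, 8.71, 8.94 and 9.82 on WT 1 to WT 5. KO 2, KO 5 and WT 3 were its 3 lowest arrays, and KO 4, lowest in Clk1, was its highest. Sf3b4 (r = -0.94), Sf3a2 (r = -0.92), Sf3b6 (r = -0.85), which contacts the branch point, Sf3b2 (r = -0.84) and Sf3a1 (r = -0.815) made up the rest of the 6. Sf3b3 (r = -0.53) and Sf3a3 (r = -0.17) lay between.

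Sf3b1, the subunit of SF3B that clamps the branch point helix, lay on the other side from its own complex. Its level was 10.19, 11.45, 9.18, 9.57 and 11.65 on KO 1 to KO 5, against 9.69, 9.57, 11.62, 11.08 and 9.67 on WT 1 to WT 5. Its r with Clk1 was 0.97 over 10 arrays and 0.91 over the 7, against -0.84 for the median of its subfamily. KO 2, KO 5, WT 3 and WT 4 were the highest in Sf3b1 and were the 4 lowest arrays in Sf3b5.

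The PRPF genes had a median r of 0.27 over 12 genes. Of these, 4 were at 0.8 or more (33.3%, against 12.9% of all genes). At -0.8 or less there were 2, which is near the share of all genes (16.7%, against 17.3%). Prpf4b, a kinase related to the CLKs that phosphorylates tri-snRNP proteins, had r = 0.97 (0.94 over the 7 arrays). Its level was 8.46, 10.34, 7.88, 7.81 and 10.47 on KO 1 to KO 5, against 7.95, 7.83, 10.63, 8.67 and 7.80 on WT 1 to WT 5. Prpf39, a U1 snRNP factor, had the widest range of the 51 genes (3.86) and r = 0.96. It was 7.12, 9.57, 6.36, 6.03 and 9.74 on KO 1 to KO 5, against 5.88, 6.07, 9.69, 6.91 and 6.14 on WT 1 to WT 5. In Prpf39 and Prpf4b the 3 arrays stood well clear of the other 7, whereas in Clk1 WT 4 filled part of the gap.

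Prpf38b (r = 0.95) and Prpf18 (r = 0.93), a factor of the second catalytic step, also followed Clk1. Prpf31 (r = -0.92) and Prpf8 (r = -0.87), the core protein of the U5 snRNP, ran the other way. Prpf31, a U4/U6 snRNP protein, was 9.95, 9.57, 10.03, 10.24 and 9.74 on KO 1 to KO 5, against 10.28, 10.08, 9.69, 9.75 and 10.22 on WT 1 to WT 5. Prpf3 (r = 0.78), Prpf38a (r = 0.27), Prpf4 (r = 0.26), Prpf6 (r = -0.30), Prpf40b (r = -0.38) and the ubiquitin ligase Prpf19 lay between. Over the 7 arrays r was -0.88 for Prpf31 and -0.49 for Prpf8.

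**Figure D4:**
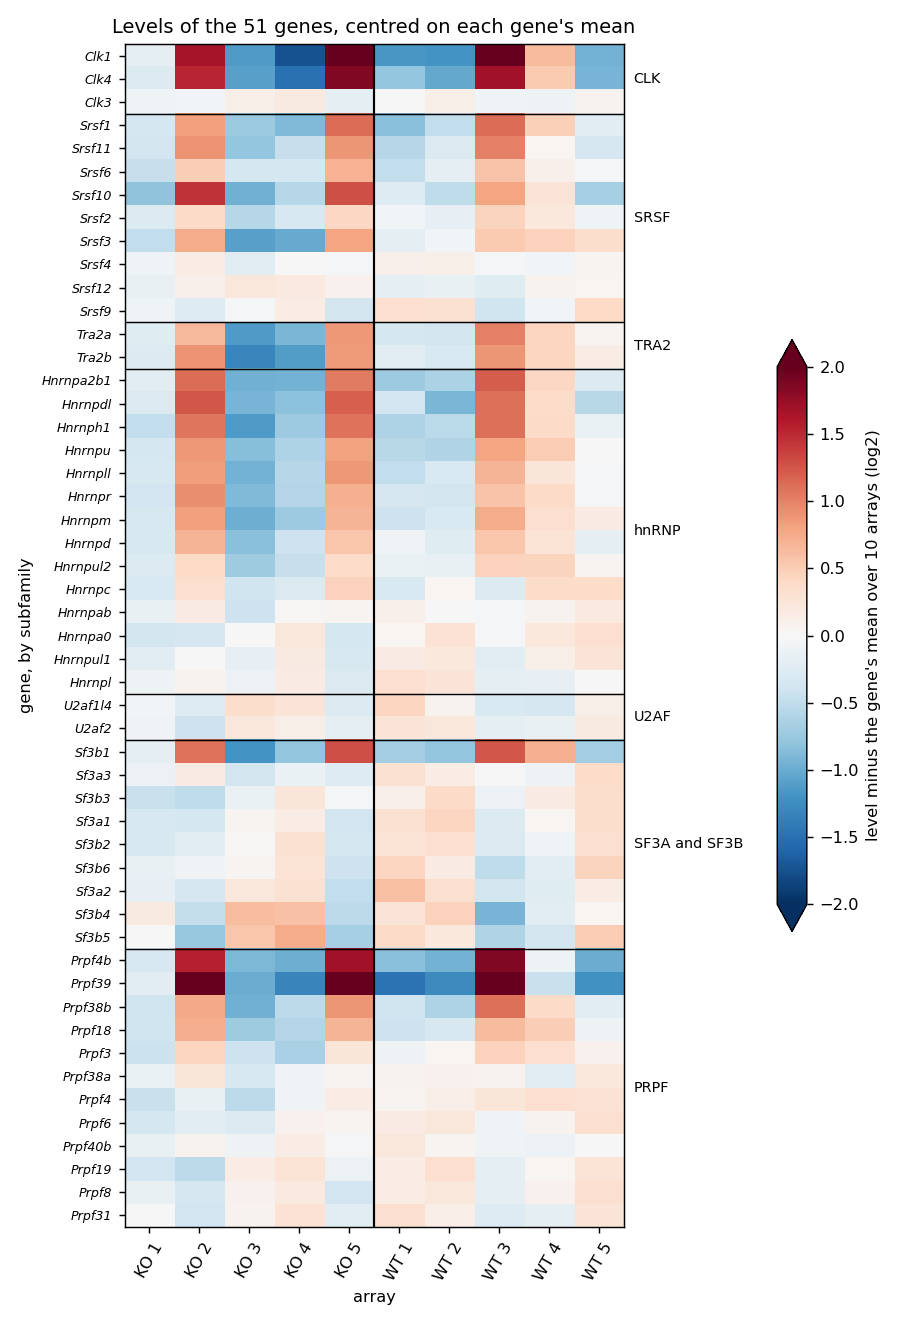
Level of each of the 51 genes minus its own mean over 10 arrays (colour, log2, with the colours ending at a distance of 2 from the mean) by array, KO left of WT, and by subfamily, each ordered by r with Clk1. KO 2, KO 5 and WT 3 are the highest arrays across Clk1, Clk4, most SRSF, TRA2 and hnRNP genes and Sf3b1, and are low in U2AF and most SF3A and SF3B genes.

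The spread between arrays also varied among the members. The range over arrays had a median of 2.03 in the 22 (1.02 to 3.86), 0.781 in the 12 (0.352 to 1.55) and 0.680 in the 16 between. Per unit of Clk1 on the log2 scale, the fitted change in level was 1.07 for Prpf39, 0.87 for Clk4, 0.80 for Prpf4b, 0.58 for Hnrnpa2b1 and 0.54 for Srsf1, against -0.37 for Sf3b5.

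The arrays high in Clk1 came from more than 1 batch. In batch 1, KO 2 lay above KO 1 and WT 1 in 29 of the 50 members other than Clk1 and below both in 11. In batch 3, KO 5 and WT 3 both lay above WT 2 and WT 4 in 22 of the 50 and below both in 16. Batches 2 and 4 held only arrays of 1 group and none of these 3. Among the 22 members at r of 0.8 or more, Hnrnpul2 was the exception whose 3 highest arrays were not KO 2, KO 5 and WT 3. The counts within batches and that order follow largely from how the members, the 22 and the 3 arrays were chosen. The same counts were not made over all genes, so they are no further evidence.

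Other genes of RNA processing are described from lists of pathway members. Among 28 measured SR-related proteins of nuclear speckles, 21 had r of 0.8 or more with Clk1 (75%, against 12.9% of all genes). At r of -0.8 or less there were 2 (7.14%, against 17.3%). Ccnl2 (r = 0.99), a cyclin of the speckle, was 9.59, 10.53, 9.20, 9.13 and 10.73 on KO 1 to KO 5, against 9.07, 9.25, 10.74, 9.89 and 9.21 on WT 1 to WT 5. Nktr (r = 0.99) and Rbm39 (r = 0.98) followed in the same way, while Scaf1 (r = -0.96) and Cherp (r = -0.89) were the 2 opposed. Among 36 other RNA-binding regulators of splicing, 19 had r of 0.8 or more (52.8%, against 12.9% of all genes), with Syncrip and Tial1 at 0.98. In that list 3 had r of -0.8 or less (8.33%, against 17.3%), with Ptbp1, the polypyrimidine tract binder, at -0.98. Over the 7 arrays 11 of the 28 and 6 of the 36 had r of 0.8 or more, against 5.89% of all genes. At r of -0.8 or less there were then 2 and 1, against 7.16%.

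The snRNP proteins resembled the SF3 genes. Of 22 measured snRNP-associated proteins, 12 had r of -0.8 or less (54.5%, against 17.3% of all genes), with Eftud2 at -0.96 and Snrpb at -0.94. At r of 0.8 or more there were 4 (18.2%, against 12.9%), with Snrnp48 at 0.96 and Snrpb2 at 0.95. Over the 7 arrays 5 of the 22 had r of -0.8 or less, against 7.16% of all genes. At 0.8 or more there were then 2, against 5.89%. Of 10 genes of the exon junction complex and nonsense-mediated decay, 4 had r of -0.8 or less (40%, against 17.3%), with Eif4a3 at -0.94. Only 2 had r of 0.8 or more (20%, against 12.9%), the kinase Smg1 at 0.99 and Upf2 at 0.97. Over the 7 arrays 3 of the 10 had r of -0.8 or less (against 7.16%) and 2 had r of 0.8 or more (against 5.89%). Of 7 measured SR protein kinases and phosphatase subunits, Srpk2 (r = 0.96) and the member Prpf4b followed Clk1 (28.6%, against 12.9% of all genes). Dyrk1b (r = -0.93) and Ppp1r8 (r = -0.90) were among 3 opposed (42.9%, against 17.3%). Over the 7 arrays 2 of these 7 genes had r of 0.8 or more (against 5.89%) and 1 had r of -0.8 or less (against 7.16%). Malat1, a long noncoding RNA of nuclear speckles, had r = 0.96, and Crem itself had r = 0.90 over 10 arrays and 0.76 over the 7.

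The genes most like Clk1 outside the families were Zfp407, Ice2, Zscan26, Usp15, Mdm4, Zbtb6, Arhgap12 and Rnf13 (r of 0.992 to 0.997 over 10 arrays), and the most opposed were Nfkb2, Nelfe, Med11, Dmap1 and Ilrun (r of -0.996 to -0.989). The genes at r of 0.8 or more over the whole table had a longer genomic span (GRCm38.p6, median 41.8 kb) than those at r of -0.8 or less (median 11.9 kb). The members differed less in span, with medians of 19.5 kb in the 22 and 11.3 kb in the 12. The correlation between r and log10 span was 0.269 across 50 members and 0.18 across 19580 genes, which are not independent replicates.

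Markers of other cell types were set beside the pattern. No marker of the adrenal cortex (11 genes), chromaffin cells (11), adipocytes (10), liver and pancreas (9) or lymphocytes (9) had r with Clk1 of 0.8 or more or of -0.8 or less. Chromaffin markers were low on KO 1. Their rank correlation lay further from 0, with a median rho of -0.61 against a median r of -0.16. The lowest were Dbh (rho -0.82), Phox2a (-0.79) and Ddc (-0.71), while Scg2 (0.37), Syt1 (0.18) and Chgb (0.09) had positive rho. Lymphocyte markers had a median r of -0.52 and a median rho of -0.59. Their mean lay between 5.89 and 6.03 on KO 2, KO 5 and WT 3, against 6.08 to 6.70 on the other arrays. The 2 measured erythroid markers, Alas2 and Slc4a1, had a median r of -0.60. The erythroid mean lay between 7.43 and 7.65 on the same 3 arrays, against 7.93 to 9.21 on the others. Of 12 macrophage markers, 5 had r of -0.8 or less (41.7%, against 17.3% of all genes), with Cd68 at -0.92. Of 10 endothelial markers 3 did (30%). Over the 7 arrays without KO 2, KO 5 and WT 3 these counts were 0 and 1, against 7.16% of all genes. The mean of the macrophage markers lay between 9.20 and 9.73 on KO 2, KO 5 and WT 3, against 9.80 to 10.57 on the other arrays. The endothelial mean lay between 10.12 and 10.16 on these 3 arrays. It was 9.95 on KO 1 and 10.17 to 10.70 on the remaining arrays. Of 31 genes of the respiratory chain and ATP synthase, 7 had r of -0.8 or less, which is near the share of all genes (22.6%, against 17.3%). Their median r was -0.70, against -0.35 over all genes, and only 1 had positive r. Over the 7 arrays the medians were -0.26 and -0.16. The mean of these genes lay between 10.98 and 11.04 on KO 2, KO 5 and WT 3, against 11.11 to 12.12 on the other arrays. The part of these cells or of RNA quality in the members' pattern was not tested.

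The comparison the design implies asks whether the absence of Crem changed these genes in the adrenal gland. No member passed limma's test with Benjamini-Hochberg adjustment over all probes (0 of 51 at an adjusted p under 0.05, against 0% of 25664 probes, smallest adjusted p 0.999). At an unadjusted p under 0.05, 0 of 51 members were higher in KO, against 0.923% of probes, and 3 were lower in KO, against 2.50% of probes. The levels of KO and WT overlapped in all 51 members, while 0.717% of 19661 genes had groups that did not overlap. The difference was below 0 in 38 members (74.5%), against 50.6% of probes, with a median of -0.10 over the members and -0.0027 over all probes. Standard errors of the members ranged from 0.0892 to 0.936, with a median of 0.219.

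These counts moved with batch and with single arrays. With batch as a fixed block the difference was above 0 in 28 members and below 0 in 23, with a median of 0.155. Batches 1 and 3, which hold both groups, contain KO 2 and KO 5. At an unadjusted p under 0.05, leaving out WT 3 gave 8 members (5.49% of all probes passed), leaving out KO 4 gave 6 (5.70%), leaving out WT 2 gave 1 (2.15%) and leaving out WT 5 gave 1 (1.96%), against 3 members and 3.42% of probes on all arrays. Without KO 2, KO 5 and WT 3 the median was -0.323 and 13 members had an unadjusted p under 0.05, all lower in KO (25.5%, against 7.30% of probes lower and 4.88% higher), and no member passed after adjustment.

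Clk1 averaged 10.17 ± 1.69 on KO arrays and 9.90 ± 1.41 on WT arrays (SD, n = 5 each). The difference of 0.27 (SE 0.86) was smaller than the SD of either group. An exact permutation test of this difference over the 10 arrays gave p = 0.746 (two-sided, smallest possible 0.00794). Blocking on batch gave a difference of 1.74, batch 1 alone gave 1.90 and batch 3 alone gave 1.61. It was -0.11 without KO 2, -0.21 without KO 5, 0.80 without WT 3 and -0.35 without all 3 arrays. Clk4 averaged 9.30 ± 1.52 on KO arrays and 9.09 ± 1.18 on WT arrays, a difference of 0.21 (SE 0.76, limma adjusted p 0.999), and it was -0.15 without KO 2, -0.23 without KO 5 and -0.02 without WT 2.

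The 6 members with the smallest p all had differences below 0, and none of them was among the 22 that followed Clk1. Prpf4, a U4/U6 snRNP protein, was 9.22, 9.51, 9.14, 9.60 and 9.81 on KO 1 to KO 5, against 9.71, 9.79, 9.90, 9.996 and 9.95 on WT 1 to WT 5. KO 5 overlapped with WT 1 and WT 2, and the other KO arrays lay below all WT arrays. The difference was -0.42 (SE 0.14, limma unadjusted p = 0.0109, adjusted p 0.999), and it was -0.21 after blocking on batch (limma unadjusted p = 0.241), -0.35 in batch 1 and -0.09 in batch 3.

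Prpf6, which bridges the tri-snRNP, was 10.06, 10.19, 10.15, 10.50 and 10.46 on KO 1 to KO 5, against 10.58, 10.64, 10.35, 10.49 and 10.73 on WT 1 to WT 5, a difference of -0.28 (SE 0.12, limma unadjusted p = 0.0346), which was -0.23 after blocking on batch (limma unadjusted p = 0.202). Hnrnpa0 was 9.02, 9.05, 9.40, 9.61 and 9.04 on KO 1 to KO 5, against 9.42, 9.67, 9.34, 9.60 and 9.72 on WT 1 to WT 5, a difference of -0.33 (SE 0.14, limma unadjusted p = 0.0404), which was -0.45 after blocking (limma unadjusted p = 0.0122). In both genes some KO arrays lay within the WT range. The SF3 genes Sf3b3 (-0.35, SE 0.16), Sf3a1 (-0.34, SE 0.17) and Sf3a3 (-0.28, SE 0.13) had the next smallest p. All 6 differences stayed below 0 in every alternative run, and within batch 3 Prpf6 differed by only -0.03.

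**Figure D5:**
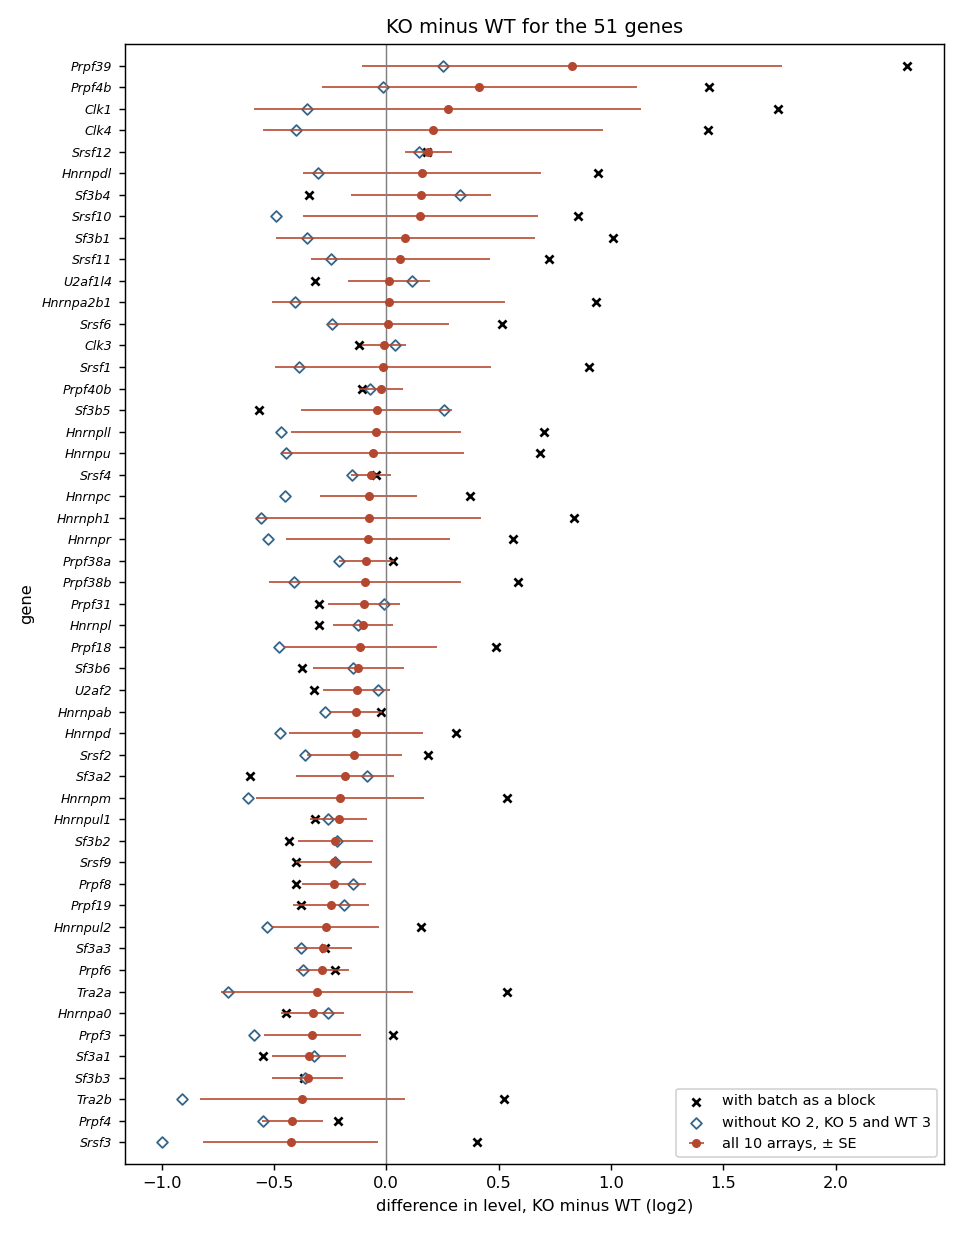
Difference in level, KO minus WT (horizontal axis, log2), of the 51 genes, with bars ± SE from the fit on 10 arrays, crosses for the fit with batch as a block and diamonds for the fit without KO 2, KO 5 and WT 3. For Clk1 the 3 values were 0.27, 1.74 and -0.35, and for Sf3b3 they were -0.35, -0.37 and -0.36.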

How the data were processed

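Adrenal RNA of 10 mice was hybridised to Affymetrix whole-transcript arrays. The deposited values are log2 levels per probe, made by the authors with RMA according to the submitters' processing notes, and RMA applies background correction, quantile normalisation and probe summary. The sources used here do not state software versions, filters, batch handling or a genome build. The 35557 rows held 25689 with values, and 9868 without values were not analysed. The 25 measured control probes were left out, which left 25664.

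Symbols came from the platform annotation and were matched by Entrez ID to RefSeq of GRCm38.p6 (19584 of 19661 genes, and all 51 members). Members and lists were chosen with earlier results of these data known. Genotypes were compared on all 10 arrays by limma (version 3.58.1, R 4.3.3) with genotype as the only term (two-sided), with Benjamini-Hochberg adjustment across the 25664 probes and a threshold of 0.05. The fit and the correlation were tested on simulated data. Correlations were computed in Python 3.11.15 with numpy 2.4.6. The genes named were all CLK and TRA2 members, up to 3 highest and 2 lowest by r in each subfamily, and the 6 smallest p, and others were named to account for every member. Alternatives were batch as a fixed or random block (consensus correlation 0.172), fits within batches 1 and 3, other normalisations, the brighter probes, the average over all of a gene's probes, eBayes with trend and robust, centring by batch or genotype, rank correlation and leaving out each array. Fits without KO 2, KO 5 and WT 3 for KO minus WT, and counts at r of -0.8 or less under each setting, were added after the data were seen. The number of arrays limits the precision. 1 name without values that the rule takes is not reported here.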

Additional observations from a re-analysis of the deposited data

Results flagged for a closer look

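Prpf39 was singled out because WT 3 lay far above the other 4 WT arrays. Its level there was 9.69, against 5.88 to 6.91 on the rest, and the gap was 0.730 of the range of the WT group, above the critical value for 5 samples. In all, 62 groups of 5 arrays were looked at for 31 named genes, and chance alone marks about 1 in 20 groups.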

How the results depend on the processing

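No member passed an adjusted p under 0.05 in any fit. The count of members at an unadjusted p under 0.05, which was 3, was 5 with batch as a fixed block (7.18% of all probes), 6 with batch as a random block (3.45%), 0 within batch 1 (0.873%) and 0 within batch 3 (1.03%), and 1 after repeated quantile normalisation, with the brighter probes or with trend and robust moderation. It was 13 without KO 2, KO 5 and WT 3 (12.2% of all probes), and 1 to 8 when single arrays were left out. The median difference over the members, which was -0.10, was 0.155 with the fixed block, 0.112 within batch 1, 0.111 within batch 3 and -0.323 without the 3 arrays, and -0.214 to -0.027 when single arrays were left out. The differences of Clk1 and Clk4 changed sign to -0.354 and -0.403 without the 3 arrays, and ranged over -0.214 to 0.803 for Clk1 and -0.229 to 0.654 for Clk4 when single arrays were left out. Without the 3 arrays the counts of members at r of 0.8 or more and of -0.8 or less were 8 and 7. The median r, which was 0.369, was 0.494 with levels centred by genotype, 0.453 without the 2 arrays farthest from the median Clk1 level (KO 5 and WT 3), 0.468 after repeated quantile normalisation, and 0.270 to 0.509 when single arrays were left out. The cause of these changes was not tested. The numbers of the mice do not pair KO with WT animals, so no paired fit was made. RMA values carry no detection call, so a low level such as that of Srsf12 may lie near background.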
